A study of Mus musculus with 10 samples.

Results

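Metabotropic glutamate receptors are G protein-coupled receptors that sense synaptic glutamate, and 7 of their genes (Grm2 to Grm8) were followed in single neurons of the mouse nucleus of the solitary tract, where sensory input from the viscera reaches the brainstem. The 7 genes were taken by symbol, and all 7 matched 1 Ensembl identifier each among the 25006 genes listed for every neuron. By the usual classification they fall into group I (Grm5), group II (Grm2 and Grm3) and group III (Grm4, Grm6, Grm7 and Grm8). Group I receptors couple through Gq to phospholipase C, calcium release and protein kinase C, and act mostly at postsynaptic sites. Receptors of groups II and III couple through Gi/o, lower cyclic AMP and, in many neurons, act at axon terminals to reduce transmitter release. In the nucleus of the solitary tract, metabotropic receptors are known to modulate glutamate release from vagal afferent terminals and the responses of the neurons that receive it.

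The material was RNA aspirated through a patch pipette, cytoplasm and nucleus together, from 10 fluorescent neurons in acute slices of brainstem from C57BL/6 mice aged 3 months. The mice carried LepRb-Cre and Halo-eYFP, so that cells with leptin receptor Cre activity, present or past, were yellow fluorescent. All 10 neurons share this genotype, and no wild-type, treated or reporter-negative cell was among them. By firing property the labels name 5 neurons type 2 (6-2, 10-1, 10-3, 9-2 and 9-4) and 5 type 1 (1-1, 1-2, 4-3, 8-2 and 9-1), and they explain neither the firing properties nor the numbers. No animal is named, so each type counts as 1 sample. The values below therefore stand for single neurons, an SD is spread between cells, and the types were not compared by a test.

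Gene counts per library ranged from 9796799 to 41844825. Levels are in CPM, the gene's count relative to the summed gene counts of its library, and detection below means 10 CPM or more from no fewer than 3 counts. By depth alone a zero (limit of 3 counts) bounds the level at 0.0717 CPM in 8-2, the deepest library, and at 0.306 CPM in 4-3, the shallowest. Snap25, a presynaptic SNARE protein of all neurons, was at 1546 to 3123 CPM, and the excitatory marker Slc17a6 was detected in all 10 neurons, at 90.6 to 620 CPM. Of 12 astrocyte genes, 7 were detected in type 2 and 5 in type 1, and their summed level was 1049 to 1831 CPM in type 2 neurons and 157 to 721 CPM in type 1 neurons, with no overlap. Most of that sum was Aldoc, at 856 to 1775 CPM in type 2 and 147 to 623 CPM in type 1. Type 2 lay wholly above type 1 in 0.692% of all listed genes. Gfap was at 56.1 CPM in 6-2 and 15.6 CPM in 9-1. Glul was at 2.39 to 56.3 CPM, highest in 10-1, and Slc1a2 was at 20.7 CPM in 6-2 and 30.6 CPM in 4-3. Slc1a3 had 0 counts in all 10 neurons, and Aqp4 and Gja1 were at most 0.445 and 3.37 CPM. The part of astrocyte RNA in the receptor values was not tested. The precursor markers Pdgfra and Cspg4 were at most 3.37 and 0.0956 CPM. Microglial genes were present in some libraries and are given below beside the Grm7 values.

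The receptor family was expressed in a patchwork. Of the 7 genes, 4 (Grm3, Grm5, Grm7 and Grm8) were detected in at least 1 neuron, against 47.1% of all listed genes. No neuron had more than 3 of them, and 1-1 and 4-3 had 0. All 5 type 2 neurons had 2 or 3 detected members, 3 in 9-4 and 2 in each of the others, against 2 in 8-2 and 9-1, 1 in 1-2 and 0 in 1-1 and 4-3 among type 1 neurons. Of the 25006 listed genes, 5993 to 7367 were detected per type 2 neuron and 5315 to 7073 per type 1 neuron. With 7 members, counts this small are a description and not a trait of either type. Summed over the 7 genes, the level was 129 to 420 CPM in type 2 neurons and 3.88 to 168 CPM in type 1 neurons. The type 2 neurons 6-2 and 10-1 (141 CPM) lay below the type 1 neuron 8-2, so the sums overlapped. Each of the 4 detected genes was at 0.1 CPM or less in some neuron and at 50 CPM or more in another, a range shown by 26.1% of all listed genes.

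The neurons without any detected member, 1-1 and 4-3, were also the type 1 neurons with Gad2, which encodes a GABA-synthesising enzyme, at 481 and 333 CPM against at most 1.43 CPM in 1-2, 8-2 and 9-1. They had the highest Lepr, the leptin receptor gene, of all 10 neurons, at 122 and 59.8 CPM. In type 2 neurons Gad2 was at 224 to 756 CPM beside 2 or 3 detected members, so Gad2 did not go with their absence there. The other inhibitory markers did not follow Gad2 in type 1. Gad1 and Slc6a5 were at 0 CPM in 1-1 and 4-3, and Slc32a1 was at 0 and 11.9 CPM. Slc6a5 was at 84.0 CPM in 9-1, where Gad2 was at 1.43 CPM. Libraries 1-1 and 4-3 held 14976327 and 9796799 counts, and the similarly shallow 6-2 and 1-2 (12195253 and 13858397 counts) had 2 and 1 members. Neuron 1-1 had the fewest detected genes of all 10 neurons, 5315, and 4-3 had 5700, while the highest number was 7367 in 6-2. Neuron 9-1, with 5580 genes detected, had 2 members. The part of depth in these absences was not tested.

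**Figure D1:**
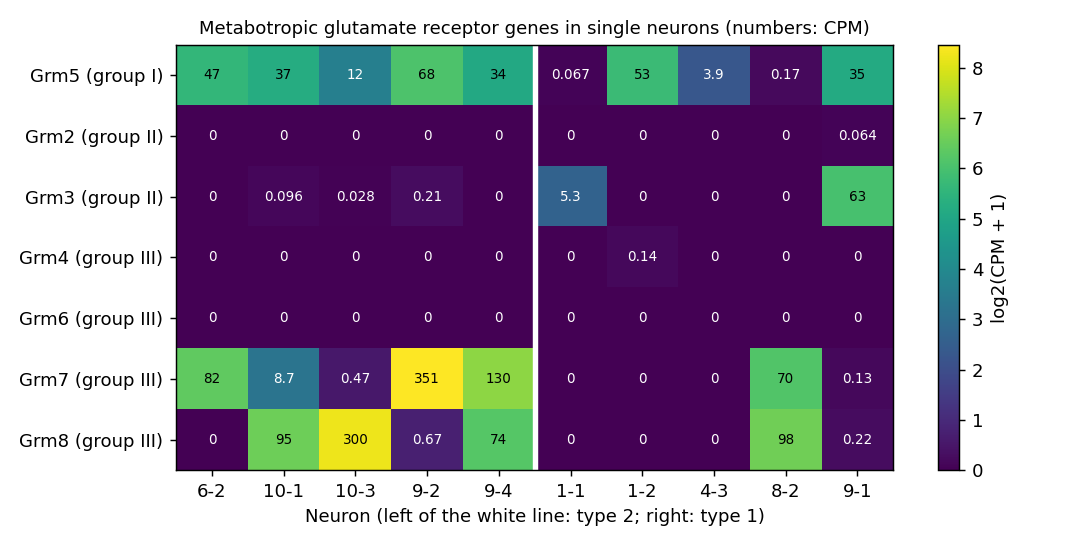
CPM of the 7 receptor genes (rows, by group) in the 10 neurons (columns, type 2 left of the white line and type 1 right of it), coloured by log2(CPM + 1) with the CPM written in each cell. Grm5 fills the type 2 columns at 11.6 to 68.1 CPM, Grm7 and Grm8 take differing sets of neurons, and Grm2, Grm4 and Grm6 stay below 0.15 CPM throughout.

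Grm5 was the most widely expressed member, and the only one with a count in all 10 neurons. This gene (ENSMUSG00000049583, GRCm38 chromosome 7, 87584168 to 88134907, plus strand) encodes mGlu5, a receptor bound by Homer scaffolds at the postsynaptic density. It was at 47.2 CPM in 6-2, 37.1 in 10-1, 11.6 in 10-3, 68.1 in 9-2 and 33.8 in 9-4, against 0.0668 CPM in 1-1, 52.9 in 1-2, 3.88 in 4-3, 0.167 in 8-2 and 35.0 in 9-1 (type 1). All 5 type 2 neurons were thus above the detection level, while type 1 neurons divided into a pair as high as type 2 and 3 neurons below it. Detection was 5 of 5 in type 2 (100%, exact Clopper-Pearson 95% interval 47.8 to 100%) and 2 of 5 in type 1 (40%, 5.27 to 85.3%). These intervals take the 5 neurons of a type as independent, which the labels do not show. The mean was 39.6 ± 20.6 CPM over type 2 and 18.4 ± 24.2 CPM over type 1 (SD over 5 neurons of each type). On the log2(CPM + 1) scale the type 2 mean minus the type 1 mean, called the difference from here on, was 2.44, with SDs between neurons of 0.92 in type 2 and 2.67 in type 1. The value nearest the detection level was 10-3 at 420 counts, just inside. Names beginning with 9 occur in both types, and among those 3 neurons the difference was 0.44, with 68.1 and 33.8 CPM in 9-2 and 9-4 and 35.0 CPM in 9-1.

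Among the 7 genes, Grm5 alone was detected in all 5 neurons of a type, which 12.2% of all listed genes did in type 2 and 8.89% in type 1. At the detection level of 10 CPM, the same 7 neurons that had Grm5 had Adcy2, an adenylyl cyclase, and no other neuron did. The match depends on that level, since 4-3 had Grm5 at 3.88 CPM with Adcy2 at 0. In type 2 neurons Adcy2 was at 33.9 to 352 CPM, and in type 1 it was at 30.3 CPM in 1-2, 125 CPM in 9-1 and at most 0.287 CPM in the other 3. Of 913 other genes detected in exactly 7 neurons, 11 (1.20%) shared that set of neurons, so Adcy2, which was noticed after its values were seen, is 1 of 11 such genes.

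Group II genes were nearly absent. Grm2 (ENSMUSG00000023192, chromosome 9, 106643095 to 106656082, minus strand), whose product mGlu2 is a presynaptic autoreceptor in many circuits, had 2 counts in 9-1 (0.0637 CPM) and 0 in the other 9 neurons. Summed over neurons this gave 0 counts in type 2 (up to 0.0246 CPM by the exact Poisson 95% limit) and 0.0179 CPM in type 1 (interval 0.00217 to 0.0646 CPM). Grm3 (ENSMUSG00000003974, chromosome 5, 9485541 to 9725170, minus strand) encodes mGlu3, which glial cells also express. It was at 0 CPM in 6-2 and 9-4, 0.0961 in 10-1, 0.0276 in 10-3 and 0.210 in 9-2, against 5.27 CPM in 1-1, 63.3 in 9-1 and 0 in 1-2, 4-3 and 8-2 (type 1). Neuron 9-1 alone passed the detection level, with 1988 of the 2078 Grm3 counts, and 1-1 lay just outside it with 79 counts. The difference was -1.64, from a mean of 0.0668 ± 0.0894 CPM over type 2 and 13.7 ± 27.8 CPM over type 1 (SD over 5 neurons each). Without 9-1 it was -0.57, and with medians in place of means it was 0.039.

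The neuron with Grm3 also had the highest sum of 12 oligodendrocyte lineage genes: 9-1 was at 1047 CPM, while type 2 neurons reached 39.2 to 220 CPM and the remaining type 1 neurons 2.07 to 141 CPM. That sum came from Mbp (578 CPM) and Cnp (455 CPM), which encode myelin proteins, while Olig1, Olig2, Sox10, Mog and Pdgfra were at 0 in 9-1. Cnp shares exon bases with Dnajc7 on the other strand, so its value is uncertain. Astrocyte markers in 9-1 were 4 of 12 detected, including Gfap at 15.6 CPM, with Aqp4, Gja1 and Slc1a3 at 0. The part of these transcripts in the Grm3 value was not tested.

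Group III held the highest and the lowest members per length of exon. Grm4 (ENSMUSG00000063239, chromosome 17, 27422387 to 27521403, minus strand), whose product mGlu4 is a presynaptic receptor best known from cerebellar parallel fibres, had 2 counts in 1-2 (0.144 CPM) and 0 elsewhere. Grm6 (ENSMUSG00000000617, chromosome 11, 50850685 to 50866208, plus strand), the receptor of retinal ON bipolar cells, had 0 counts in all 10 neurons, as did 41.6% of all listed genes. The exact Poisson upper limit for Grm6 was 0.0246 CPM over the type 2 libraries and 0.0330 CPM over the type 1 libraries. Of 5 genes of the retinal Grm6 complex, the regulator Rgs11 alone was detected, in 4 neurons of type 2 and 2 of type 1 (mean 126 ± 107 CPM over type 2 against 118 ± 161 CPM over type 1, difference 2.05). It shares exon bases with the abundant Arhgdig on the other strand, so its value is uncertain. The channel gene Trpm1, the leucine-rich repeat gene Nyx and Gpr179 had at most 0.328 CPM in any neuron, and Lrit3 had 0 counts.

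Grm7 and Grm8 lie on the same chromosome and differed sharply between neurons, whereas Grm6 was silent in every library, so the 250 bases before the RefSeq start of these 3 genes are shown here. They are read 5′ to 3′ on the gene's strand from RefSeq on GRCm38.p6, for the most upstream start in the table. RefSeq and GENCODE starts differ, and the 3′ end of the Grm8 window lies inside the GENCODE gene given below. Capitals mark a GC box (GGGCGG, searched on both strands).
Grm7 promoter, chr6:110645262-110645511, plus strand: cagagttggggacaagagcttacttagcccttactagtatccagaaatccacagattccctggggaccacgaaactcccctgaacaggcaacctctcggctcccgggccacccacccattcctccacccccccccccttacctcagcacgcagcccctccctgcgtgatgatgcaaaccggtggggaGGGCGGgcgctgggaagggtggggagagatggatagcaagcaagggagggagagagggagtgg
Grm8 promoter, chr6:28135147-28135396, minus strand: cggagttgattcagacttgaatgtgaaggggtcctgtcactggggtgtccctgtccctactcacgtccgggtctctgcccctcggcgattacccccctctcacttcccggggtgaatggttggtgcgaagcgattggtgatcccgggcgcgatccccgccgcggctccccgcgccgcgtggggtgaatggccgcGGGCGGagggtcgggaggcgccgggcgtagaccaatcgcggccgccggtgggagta
Grm6 promoter, chr11:50850435-50850684, plus strand: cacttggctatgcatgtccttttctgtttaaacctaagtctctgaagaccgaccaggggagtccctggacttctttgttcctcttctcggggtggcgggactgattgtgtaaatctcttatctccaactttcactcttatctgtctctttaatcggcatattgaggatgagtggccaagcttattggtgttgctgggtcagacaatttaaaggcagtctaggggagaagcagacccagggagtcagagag
The Grm7 and Grm8 windows each held 1 GC box and the Grm6 window 0, and 33.0% of 27025 mouse promoters of the same length hold at least 1. Grm8 had 29 CpG dinucleotides and a GC content of 68.4%, Grm7 8 and 62.0%, and Grm6 4 and 47.6%, beside medians of 6 and 52.0% over all promoters. Grm2, barely expressed here, had 3 GC boxes, 16 CpG dinucleotides and a GC content of 71.2%, and Grm3 had 1 GC box. Any relation of these features to the levels was not tested. None of these 5 windows held a TATA box (TATAAA) or a full cyclic AMP response element (TGACGTCA), which 13.0% and 1.60% of promoters hold. Grm4 and Grm5 were not in the table.

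Grm7 (ENSMUSG00000056755, chromosome 6, 110645581 to 111567230, plus strand) encodes mGlu7, a low-affinity receptor placed in the active zone of axon terminals. It was at 82.2 CPM in 6-2, 8.65 in 10-1, 0.469 in 10-3, 351 in 9-2 and 130 in 9-4 among type 2 neurons. In type 1 it was at 0 CPM in 1-1, 1-2 and 4-3, 70.0 in 8-2 and 0.127 in 9-1. Thus 3 type 2 neurons and 1 type 1 neuron passed the detection level, and 10-1 lay just outside it with 360 counts. The mean was 114 ± 143 CPM over type 2 and 14.0 ± 31.3 CPM over type 1 (SD over 5 neurons each), and the log2 difference was 3.87. The SDs between neurons on that scale were 3.19 in type 2 and 2.73 in type 1, and the ranges overlapped through 8-2. The shares detected were 60% of type 2 (exact interval 14.7 to 94.7%) and 20% of type 1 neurons (0.505 to 71.6%), with neurons again taken as independent.

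Among type 2 neurons, the 3 with Grm7 were also those with most microglial transcripts. Of 14 microglial genes, 13 were detected in 6-2, 7 in 9-2 and 13 in 9-4, with summed levels of 1846, 524 and 1685 CPM, against 0 in 10-1 and 1 in 10-3 (4.25 and 47.8 CPM). Among type 1 neurons, 8-2 had Grm7 with 1 microglial gene detected and a sum of 59.6 CPM, and 1-2 had 5 detected and a sum of 807 CPM with 0 Grm7 counts. Over the type 1 neurons the sum ranged from 0.0668 to 807 CPM. Tyrobp was at 124, 120 and 112 CPM in 6-2, 9-2 and 9-4, against at most 3.27 CPM in the other 7 neurons. Csf1r, whose exons overlap a gene on the other strand, was at 70.0, 79.5 and 56.9 CPM in those 3 neurons, against at most 0.669 CPM in the other 7. Tmem119 was at 42.0 CPM in 6-2 and 30.0 CPM in 9-4 but at 0 in 9-2, P2ry12 and Cx3cr1 were above 1 CPM in 1 neuron each (6-2 and 9-4), and Tmem119 and P2ry12 were at 0 in all type 1 neurons. Without 6-2, 9-2 and 9-4 the Grm7 difference was 0.65, resting on 10-1 and 10-3 alone in type 2. The part of microglial RNA in the Grm7 values was not tested.

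**Figure D2:**
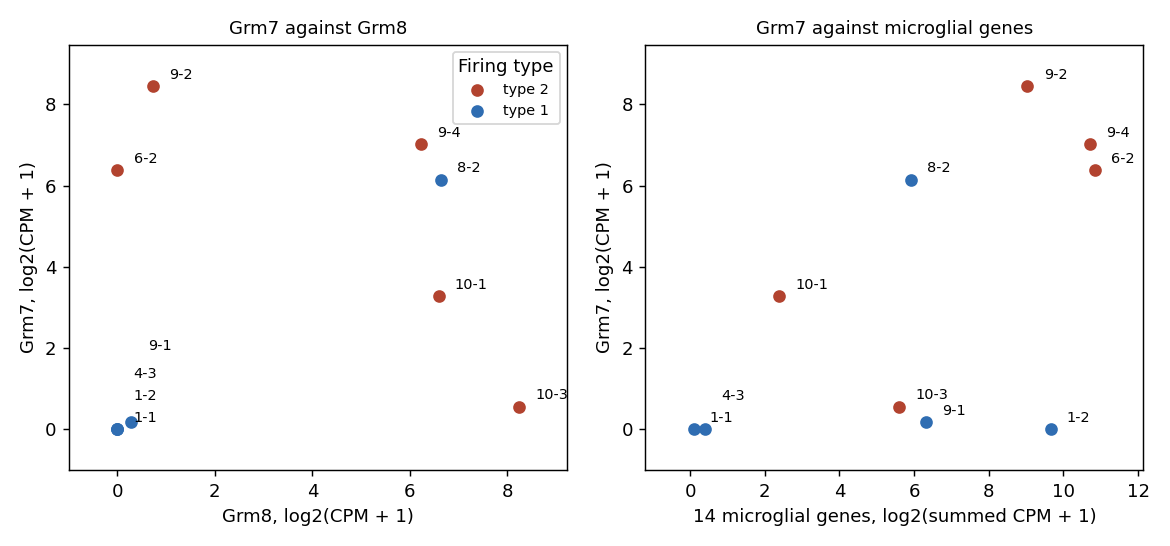
Grm7 level per neuron (vertical axes, log2(CPM + 1)) against Grm8 (left, log2(CPM + 1)) and against the summed level of 14 microglial genes (right, log2(summed CPM + 1)), with each neuron labelled by its number. On the left, 9-4 and 8-2 have both receptors, 6-2 and 9-2 have Grm7 alone and 10-1 and 10-3 have Grm8 above the detection level alone; on the right, 8-2 has 70.0 CPM of Grm7 at a low microglial sum and 1-2 has 0 at a high one.

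Grm8 (ENSMUSG00000024211, chromosome 6, 27275119 to 28135178, minus strand) encodes mGlu8, another presynaptic group III receptor with a high affinity for glutamate. It was at 0 CPM in 6-2, 95.3 in 10-1, 300 in 10-3, 0.666 in 9-2 and 73.6 in 9-4 among type 2 neurons. In type 1 it was at 0 CPM in 1-1, 1-2 and 4-3, 97.9 in 8-2 and 0.223 in 9-1. The levels formed 2 classes, 4 neurons above 70 CPM and 6 below 1 CPM, and 8-2 lay inside the type 2 range. The mean was 93.9 ± 123 CPM over type 2 and 19.6 ± 43.8 CPM over type 1 (SD over 5 neurons each), and the log2 difference was 2.97. Without 6-2, 9-2 and 9-4 it was 6.03, with 10-1 and 10-3 alone in type 2. In the libraries of under 20000000 counts, 6-2 in type 2 and 1-1, 1-2 and 4-3 in type 1, Grm8 had 0 counts in all 4 and the difference was 0.

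The sets of neurons with Grm7 and Grm8 overlapped in part. Each gene was detected in 4 neurons, both in 9-4 and 8-2, Grm7 alone in 6-2 and 9-2, Grm8 alone in 10-1 and 10-3, and neither in 1-1, 1-2, 4-3 and 9-1. Every type 2 neuron therefore had at least 1 of them at the detection level, against 1 of 5 type 1 neurons, 8-2. The 2 genes were joined after their values were seen. How many other pairs of genes show this was not computed, so it is a description. Neuron 8-2 had 7 counts of Grm5, so it held Grm7 and Grm8 with Grm5 near 0. In the other direction 1-2 and 9-1 had Grm5 without Grm7 or Grm8.

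Compared per length of annotated exons, Grm7 was highest in type 2, at a mean level of 19.4 ± 24.2 CPM per kilobase, followed by Grm8 at 9.48 ± 12.4 and Grm5 at 3.86 ± 2.01 (SD, n = 5). Grm3 led in type 1 at 4.50 ± 9.13 CPM per kilobase, all but a small part of it from 9-1, followed by Grm7 at 2.38 ± 5.32, Grm8 at 1.98 ± 4.42 and Grm5 at 1.80 ± 2.36. Neighbours in either order differed by less than the larger SD of the pair, though Grm8 and Grm5 in type 2 differed by more than the SD of Grm5. Coverage along the transcripts is not given in the sources used here, and any bias to one end would change these values, since the exon lengths ran from 3049 bases in Grm3 to 10247 in Grm5.

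**Figure D3:**
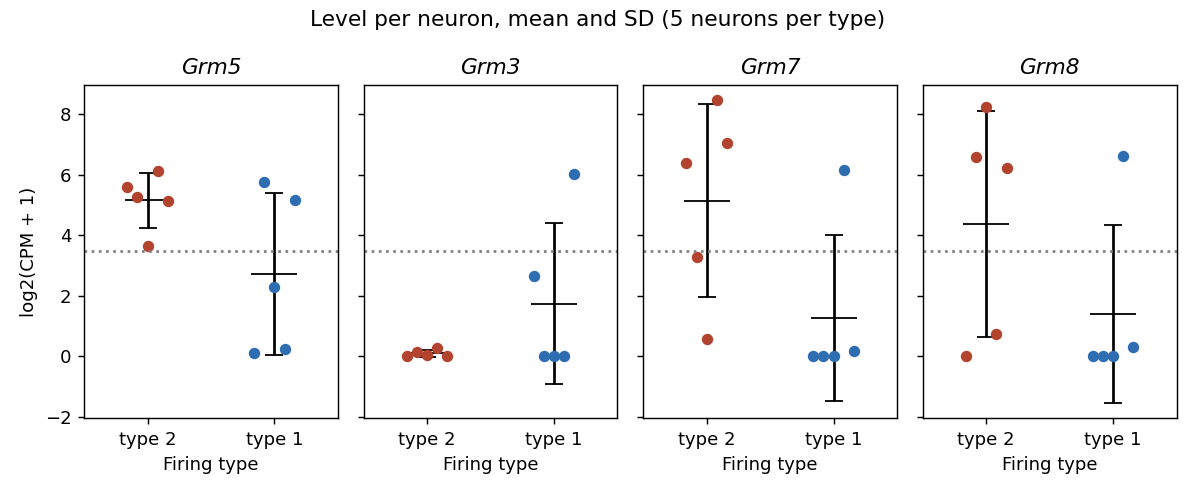
Level per neuron (points, log2(CPM + 1)) of Grm5, Grm3, Grm7 and Grm8 in type 2 and type 1 neurons, with the mean (wide bar) and SD (error bar) of 5 neurons and the detection level of 10 CPM (dotted line). Grm5 is above the line in all 5 type 2 neurons and in 2 type 1 neurons, and single type 1 neurons reach the type 2 range for Grm7 and Grm8.

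Set side by side, 3 of the 7 genes (Grm5, Grm7 and Grm8) had a type 2 minus type 1 difference of 1 or more, which 14.9% of all listed genes had, and 1 (Grm3) had a difference of -1 or less, against 10.3%. Among genes averaging 1 CPM or more over the 10 neurons those shares were 31.1% and 21.6%, and the median difference of all such genes was 0.24. Only these 4 members reached that mean, Grm3 through 9-1 alone, so their own median is not given as a result. In 0 of the 7 genes did every type 2 neuron exceed every type 1 neuron, and in 0 the reverse, against 0.692% and 0.280% of all listed genes. Detection in at least 1 type 2 neuron held for 3 members (41.7% of all genes) and in at least 1 type 1 neuron for 4 (41.0%). The differences of 1 or more in Grm5 and Grm8 stood when any 1 neuron was left out, with ranges of 1.79 to 3.20 and 2.00 to 4.28, and that of Grm7 ranged from 3.04 to 5.10.

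**Figure D4:**
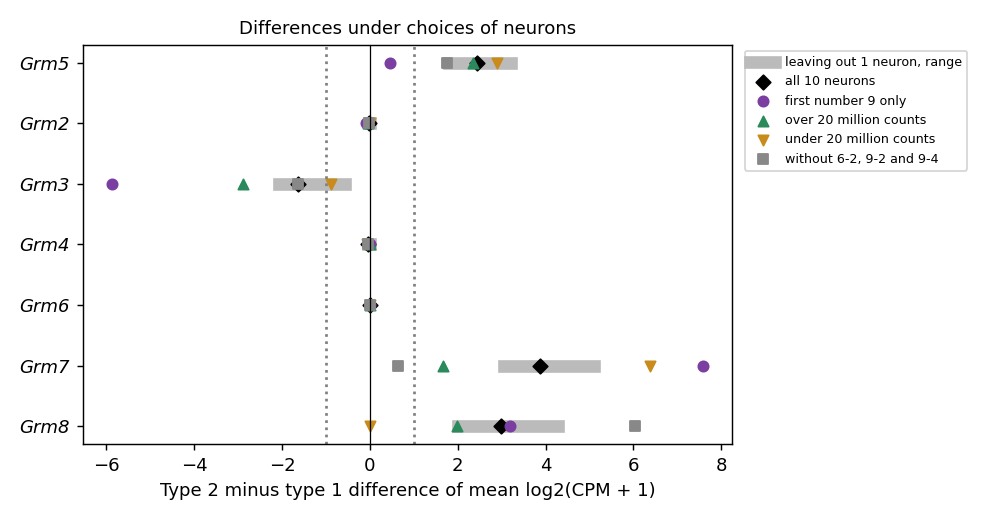
Type 2 mean minus type 1 mean (log2(CPM + 1)) for each receptor gene (rows) over all 10 neurons (black diamonds), over chosen subsets of neurons (coloured symbols) and over the 10 ways of leaving out 1 neuron (grey bars), with dotted lines at -1 and 1. Grm5 is positive in every subset but only 0.44 in the neurons numbered 9, Grm7 runs from 0.65 to 7.57 and Grm3 from -5.87 to -0.57.

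Partners of Grm5 were described through 13 genes of Gq coupling. Of the 10 that averaged 1 CPM or more (called measured), 2 had a difference of 1 or more, 3 of -1 or less and 5 lay between, against 31.1% and 21.6% of all genes with such a mean. The median was -0.22, beside 0.24 for all genes, and its direction turned with the neurons used, from -0.43 to 0.34 when 1 neuron was left out. The protein kinase C genes went opposite ways. Prkca was at 24.6 to 68.5 CPM in type 2 neurons and 0 to 0.932 CPM in type 1 neurons, with no overlap (difference 4.81). Prkcb was at 1.009 to 246 CPM in type 2 and 310 to 564 CPM in type 1, again with no overlap (difference -3.19). The G protein gene Gna11 averaged 72.8 ± 95.5 CPM in type 2, with 3 neurons detected, and 93.2 ± 59.2 CPM in type 1, with 4 (difference -1.44). These 3 genes were named for having the largest differences of the list, so the separation of Prkca and Prkcb, of a kind seen in 0.692% (type 2 above) and 0.280% (type 1 above) of all listed genes, is a description.

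Homer scaffolds, which tie mGlu5 to internal calcium stores, were uneven. Homer1 was at 7.54 CPM in 6-2, 41.4 in 10-1, 140 in 10-3, 74.5 in 9-2 and 0.191 in 9-4, against 0 CPM in 1-1 and 8-2, 11.0 in 1-2, 0.102 in 4-3 and 6.18 in 9-1 (type 1). The 3 highest neurons were of type 2, while 6-2 and 9-4 lay within the type 1 range (difference 3.11). All 4 neurons with Homer1 detected also had Grm5, which was detected in 7 of the 10 neurons, so the overlap is a description. Neurons 6-2, 9-4 and 9-1 had Grm5 with Homer1 below the detection level. Homer2 passed the detection level in the type 2 neurons 10-3, 9-2 and 9-4 (56.5, 11.3 and 17.5 CPM) and the type 1 neurons 1-2 and 8-2 (122 and 108 CPM), and Homer3 was at most 0.127 CPM in any neuron. In the list of 21 scaffolds and regulators, 19 were measured, 3 at 1 or more (31.1% of all genes), 6 at -1 or less (21.6%) and 10 between. Their median was -0.06, and leaving out 1 neuron moved it from -0.42 to 0.18, so it has no stable direction. Shank2, a postsynaptic scaffold, averaged 18.8 ± 27.5 CPM in type 2 against 85.6 ± 75.6 CPM in type 1 (difference -3.19). Rgs4, which shortens Gq and Gi signals, averaged 150 ± 249 CPM in type 2 against 1073 ± 773 CPM in type 1 (difference -4.34), and 10-3, at 593 CPM, lay inside the type 1 range.

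Of 19 genes of Gi/o coupling, which groups II and III use, 6 were detected in all 10 neurons: Gnao1, Gnai1, Gnai2, Gnaz, Gnb1 and Gnb2. Gnao1, the main G protein alpha subunit of brain, was at 110 to 368 CPM in type 2 and 45.0 to 321 CPM in type 1. All 19 were measured, and 7 had a difference of 1 or more (31.1% of all genes), 3 of -1 or less (21.6%) and 9 lay between. Their median was 0.44, and 0.07 to 0.69 when 1 neuron was left out. The largest difference was that of Adcy2, which averaged 181 ± 116 CPM in type 2 against 31.1 ± 54.0 CPM in type 1 (4.71). Adcy1, a calcium-stimulated cyclase, averaged 50.2 ± 52.3 CPM in type 2 against 0.0717 ± 0.124 CPM in type 1 (4.39). Gnai3, a Gi alpha subunit, averaged 58.0 ± 51.3 CPM in type 2 against 27.4 ± 60.9 CPM in type 1 (3.21). The Adcy1 ranges did not overlap, but the gap between them lay far below the detection level. The lowest type 2 neuron, 10-3, had 0.525 CPM (19 counts) and the highest type 1 neuron, 9-1, 0.287 CPM (9 counts). Ranges with type 2 wholly above type 1 occurred in 0.692% of all listed genes. Among 5 genes of the glutamate transporter family, 4 were measured, 0 of them at 1 or more (31.1% of all genes) and 2 at -1 or less (21.6%). Their median was -1.12, and -2.13 to -0.48 when 1 neuron was left out, beside 0.24 for all genes. One of the 2 was Slc1a6 (difference -1.87), which was detected in 1 type 1 neuron only. The neuronal transporter Slc1a1 averaged 8.51 ± 11.1 CPM in type 2 against 34.9 ± 35.8 CPM in type 1 (difference -1.36). Slc1a4, a neutral amino acid transporter of the same family, averaged 53.0 ± 74.5 CPM in type 2 against 143 ± 180 CPM in type 1 (difference -0.88).

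Elfn2, a postsynaptic adhesion protein that binds group III receptors across the synapse, was detected at 10 CPM or more in exactly the neurons with Grm7 at that level. In type 2 it was at 14.3 CPM in 6-2, 0 in 10-1, 1.55 in 10-3, 17.2 in 9-2 and 21.4 in 9-4. In type 1 it was at 0 CPM in 1-1, 1-2 and 4-3, 28.7 in 8-2 and 0.255 in 9-1. The match depends on the detection level. Neuron 10-1 had Grm7 at 8.65 CPM with Elfn2 at 0, and 10-3 had Elfn2 at 1.55 CPM with Grm7 at 0.469 CPM. Of 1064 other genes detected in 4 neurons, 21 (1.97%) shared the Grm7 set, and of 63 partner genes Elfn2 was the only one. The microglial levels given for Grm7 apply to the same neurons here, and their part was not tested. Elfn1, a relative of Elfn2, had 1 count in all, in 9-2. Pick1, which binds the tail of mGlu7, reached 42.2 CPM in 9-4, 76.6 CPM in 1-2 and 137 CPM in 8-2, and lay just outside at 9.51 CPM in 6-2. Thus it was detected in 2 of the 4 neurons with Grm7 and in 1 without it.

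**Figure D5:**
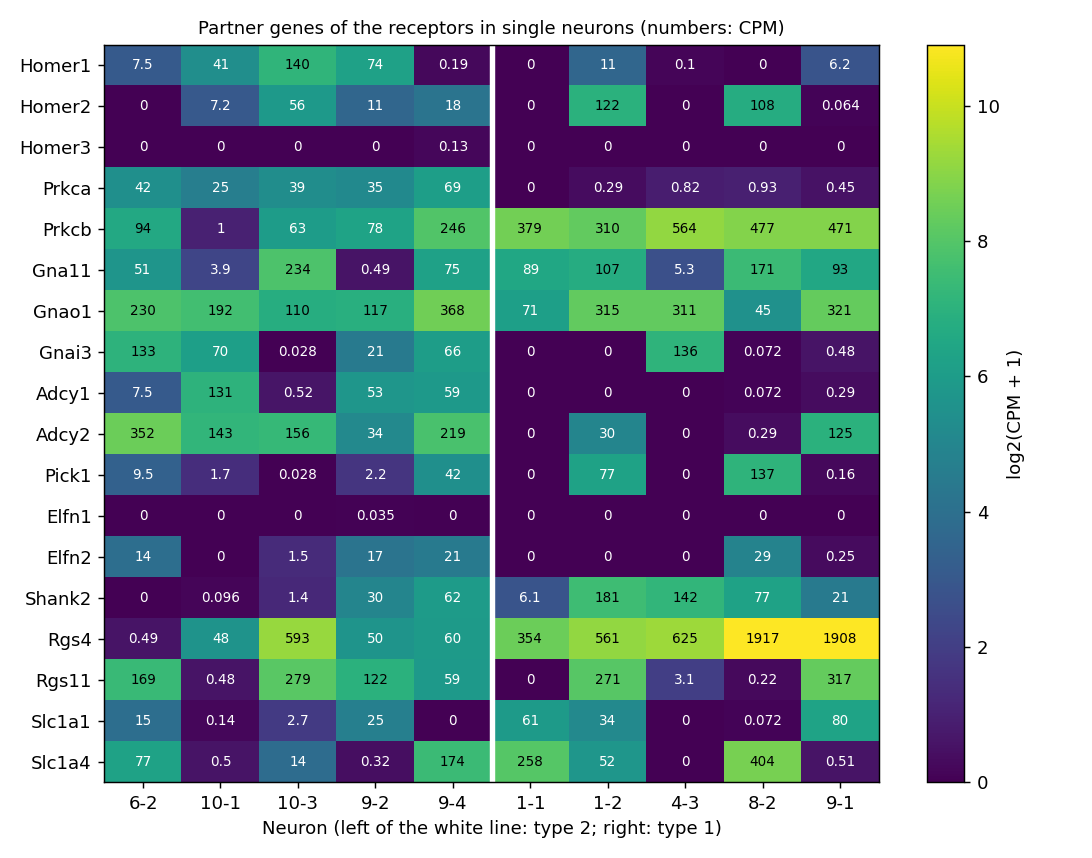
CPM of 18 partner genes of the receptors (rows) in the 10 neurons (columns, type 2 left of the white line and type 1 right of it), coloured by log2(CPM + 1) with the CPM written in each cell. Prkca fills the type 2 columns and Prkcb is near or above 310 CPM in every type 1 column, while Elfn2 exceeds 10 CPM only in 6-2, 9-2, 9-4 and 8-2.

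The genes with the pattern most like Grm7 over the 10 neurons, among 7353 genes detected in at least 4 neurons, were Zfp131, Zfp560 and Ino80c (Pearson r of log2(CPM + 1) 0.971, 0.970 and 0.967). For Grm8 they were Tipin, Mroh7 and Smim15 (r 0.996, 0.988 and 0.975). In all, 24 of the 7353 genes reached 0.9 or more with Grm7 and 6 with Grm8. The points share library and depth, and the values are a description.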

How the data were processed

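Per the file headers, the deposited values are counts of reads per Ensembl gene, 1 table for each of 10 neurons, with no normalization. Per the submitters' processing notes, cutadapt 1.13, STAR, HTSeq 0.6.1p1 and DESeq2 were used with mm10. The sources used here give no annotation release, no strand setting and no amplification method. All 45 pairs of libraries differed beyond sampling noise.

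Identifiers were matched to symbols, and to GENCODE M21 coordinates on GRCm38, the assembly of mm10. The 7 receptor genes shared 0 windows of 50 bases with each other, and no gene with counts overlapped their exons. The members, lists and limits were chosen with earlier results of these data known. All 7 members are named, and from each list the 3 largest differences among genes detected in 3 or more neurons of either type, plus Homer1, Homer2, Homer3, Pick1, Elfn1, Elfn2 and Gnao1. Other genes were named after their values were seen. A difference is the mean log2(CPM + 1) of type 2 minus that of type 1, a scale that understates changes of low genes, and the limit was 1. Likeness left out predicted, mitochondrial, ribosomal, haemoglobin and pseudogene entries. The calculation of differences was tested on simulated counts with planted changes. Those counts did not copy the switching between near 0 and high levels seen between neurons here. That test therefore does not show how often such spread passes the limit. Amplified reads are not independent molecules, so Poisson intervals and zero-count limits hold counting error alone. The exact intervals on shares of neurons instead assume independent neurons, and no animal is named. Alternatives used edgeR 4.0.16 (TMM) and DESeq2 1.42.0 (size factors); the rest ran in Python 3.11.15 with pandas 2.3.3 and scipy 1.17.1. One receptor of group I was not analysed here.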

Additional observations from a re-analysis of the deposited data

Results flagged for a closer look

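Among type 1 neurons, 8-2 stood far from the other 4 in both main group III genes. It had 70.0 CPM of Grm7 where the others had at most 0.127 CPM, a gap of 0.97 of the range of the 5 log2 levels. It had 97.9 CPM of Grm8 where the others had at most 0.223 CPM, a gap of 0.96. Both gaps exceed Dixon's 95% critical value for 5 samples. That value passes about 1 in 20 groups of independent, normal samples by chance, a rate that does not apply to single neurons of which 3 are at exactly 0, so the gaps are a description. Its total of 41844825 counts was the highest of the 10 libraries. Without 8-2 the type 2 minus type 1 difference was 5.10 for Grm7 and 4.28 for Grm8.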

How the results depend on the processing

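Over 25 alternatives of scaling, pseudocount, filter, detection level and choice of neurons, the count of members at 1 or more was 2 or 3, and Grm5 and Grm7 kept a positive difference under every one that bears on differences, at 0.44 to 3.43 and 0.65 to 7.57; Grm8 was at 0 in the libraries under 20000000 counts and positive otherwise, up to 6.22. Grm3 was at 0.039 with medians over neurons, -3.79 as a ratio of mean CPM and -5.87 in neurons numbered 9, where Grm7 was at 7.57; without 6-2, 9-2 and 9-4 Grm7 was at 0.65. The count at -1 or less was 0 with a pseudocount of 10, with medians, at a limit of 2, in libraries under 20000000 counts and without 9-1, and otherwise 1 (0 to 1 when 1 neuron was left out). Members detected in type 1 numbered 2 in neurons numbered 9, 1 in libraries under 20000000 counts and 2 without 8-2 (2 to 4 when 1 neuron was left out). The median of the 7 members was 0, with 0.039 under medians over neurons and 2.71 over those with a mean of at least 1 CPM. The list median of the Grm6 retinal complex, which is Rgs11 alone, was -1.88 in neurons numbered 9, against 2.05 in all, and that of glutamate clearance was 0.99 in libraries under 20000000 counts, against -1.12. Over all alternatives the list medians ran from -1.35 to 0.90 for group I coupling and -0.91 to 0.99 for scaffolds, so neither has a direction. The cause was not tested. The median of all genes moved from 0.24 to 0.39 with TMM scaling. No paired analysis was possible because the neuron numbers mark no stated animal or batch and no test between types was made. Depth limits what a count of 0 shows to 0.0717 to 0.306 CPM per library, and 5 neurons per type leave wide intervals on every share.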
